A study of Solenopsis invicta with 4 samples.

Results

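The transcripts described here belong to lipid breakdown, storage and transport in the fire ant Solenopsis invicta, an invasive species, sampled as whole medium-sized workers. Members were the assembled contigs whose protein description names a lipase, a carnitine or acyl-CoA enzyme of fatty acid oxidation, a lipid carrier or uptake receptor, a storage protein or an acyltransferase. Phospholipases and venom proteins were left out, and a member had to match a fire ant gene or transcript. Oxidases whose description spells out acyl-coenzyme A did not match the rule. Of 9001 contigs in the 3 deposited tables, 30 contigs of 27 genes met this rule. By role, 13 were lipases, 11 carriers, 4 acyltransferases and 2 enzymes of fatty acid oxidation. No contig was described as a storage protein, that is a vitellogenin, hexamerin or perilipin.

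Wild-type adult workers from colonies kept at 25 °C were held for 24 h at 10, 20, 30 or 40 °C, and 30 °C was the control named in the labels. The labels do not say how many ants or colonies went into an RNA sample. Each temperature had 1 library, so no difference below has a replicate check and no test between temperatures was made. Each table holds only contigs that the authors found to differ from 30 °C, so every member listed had to differ, and a temperature missing for a member means that it was not listed there.

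Levels are CPM, the read counts scaled by a library size that the authors adjusted. That size lay between 23204029 reads, for the 20 °C library, and 43393168, for the 40 °C library. Folds are ratios of CPM with exact Clopper-Pearson 95% intervals, which cover counting error only. Where a log2 ratio is given, 1 CPM was added to both levels. Judged by the deposited FPKM values, which scale by total reads, log2 folds would shift by -0.02 at 10 °C, -0.64 at 20 °C and 0.52 at 40 °C. In whole bodies, fewer cells of a type and less RNA per cell cannot be told apart.

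Insects store fat as triacylglycerol in lipid droplets of the fat body. Lipases release fatty acids or diacylglycerol from it, and lipophorin particles carry the lipid through the haemolymph to tissues that burn it. There, carnitine palmitoyltransferase passes long-chain fatty acids into mitochondria, where acyl-CoA dehydrogenases start beta-oxidation. Insects cannot make sterols, so the proteins that take up and traffic dietary sterol belong to the same economy.

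The carriers and uptake receptors among the members were higher at 40 °C and lower in the cold wherever they were listed. Outside the members, carriers went both ways. Against the pattern, the non-specific lipid-transfer protein LOC105201416 was 5.50-fold (2.83 to 11.5) higher at 20 °C, on 40 reads against 12. Apolipoprotein D-like (LOC105196365) was 14.1-fold higher at 10 °C, and apolipoprotein D (LOC105193881) 3.24-fold higher at 10 °C and 7.37-fold lower at 40 °C. A further contig of the scavenger receptor LOC105200975 was 6.24-fold lower at 40 °C. Along the pattern were the low-density lipoprotein receptor-like and croquemort contigs at 40 °C, given below, and stAR-related lipid transfer protein 3 (LOC105199905), 3.55-fold lower at 10 °C. At 40 °C, 8 of 8 member carrier contigs were higher, by 2.92-fold to 7.64-fold. At 10 °C 3 of 3 were lower, by 2.78-fold to 4.30-fold, and at 20 °C 3 of 3 were lower, by 2.90-fold to 6.63-fold. For comparison, the share of all listed contigs that was higher was 46.7% in the 40 °C comparison, 56.5% in that of 10 °C and 52.4% in that of 20 °C. Among listed ant contigs with a protein name, from which members are drawn, it was 59.0% at 40 °C, 56.7% at 10 °C and 54.6% at 20 °C. Carriers listed in the heat and in the cold are mostly different contigs, since 1 carrier was listed at all 3 temperatures and 1 at both 10 and 20 °C. The 3 comparisons share the 30 °C library.

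The carrier with the most reads was apolipophorins (LOC105200891), the precursor of the lipoprotein that moves lipid in insect blood. It had 5367 reads at 30 °C and 19729 at 40 °C, or 140.2 and 454.7 CPM. Per length it had the highest level of the 16 members listed at 40 °C, at 75.88 FPKM against 16.48 FPKM at 30 °C.

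Scavenger receptors class B are membrane proteins of the CD36 family that bind lipoproteins and take up lipids, sterols and carotenoids. All 4 such members were listed at 40 °C and higher there. LOC105198403 went from 753 reads at 30 °C to 2710 at 40 °C, which is 19.7 and 62.5 CPM and 3.17-fold (2.93 to 3.45). LOC105193094 went from 206 to 713 reads, 5.38 and 16.4 CPM, and was 3.05-fold (2.61 to 3.58) higher. The largest fold among all carriers was that of LOC105200975, with 56 reads at 30 °C and 485 at 40 °C, which is 7.64-fold (5.78 to 10.3).

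The fourth receptor, LOC105196585, is the 1 member listed in all 3 tables. From cold to hot its libraries held 21, 24, 115 and 493 reads, or 0.699, 1.03, 3.0 and 11.4 CPM. Both cold libraries were low, the control was intermediate and the 40 °C library was high. Against 30 °C it was 4.30-fold (2.68 to 7.20) lower at 10 °C, 2.90-fold (1.86 to 4.72) lower at 20 °C and 3.78-fold (3.08 to 4.67) higher at 40 °C. The level at 40 °C was 16.2-fold (10.5 to 26.5) that at 10 °C, a ratio that does not use the control. The levels at 10 and 20 °C did not differ beyond counting error, at 1.48-fold (0.789 to 2.79) on this scaling, and 20 °C becomes the lower one, by 1.04-fold, on the FPKM scale.

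Niemann-Pick proteins move sterol out of lysosomes in mammals, where the soluble NPC2 binds it and hands it to the membrane protein NPC1. The Niemann-Pick C1 contig (LOC105201184) had 1676 reads at 30 °C and 5551 at 40 °C, or 43.8 and 128 CPM, which is 2.92-fold (2.77 to 3.09) higher. A second gene, Niemann-Pick C1-like (LOC105200530), was caught by 2 contigs. One had 21 reads at 30 °C and 114 at 40 °C, 4.79-fold (2.99 to 8.03) higher, and the other had 50 reads at 30 °C and 5 at 20 °C, 6.06-fold (2.43 to 19.5) lower. They lie in different tables, so neither contig has a value at both of these temperatures.

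The NPC2 homolog (LOC105197297) belongs to a family that in a carpenter ant also binds odorous compounds in the antennae. It had 223 reads at 10 °C, 82 at 20 °C and 897 at 30 °C, or 7.43, 3.53 and 23.4 CPM. Both cold libraries were below the control, and the one at 20 °C was the lower of them, by 2.1-fold (1.62 to 2.74) against 10 °C. Relative to 30 °C it was 3.16-fold (2.72 to 3.67) lower at 10 °C and 6.63-fold (5.28 to 8.42) lower at 20 °C. At 30 °C it had the highest level per length of all 30 members, 40.73 FPKM, where the median member had 1.36 FPKM.

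Long-chain fatty acid transport protein 4-like (LOC105199469), which in mammals takes up fatty acids and couples them to coenzyme A, was listed at 10 °C. Reads numbered 3873 at 30 °C and 1094 at 10 °C, or 101 and 36.4 CPM, and the contig was 2.78-fold (2.60 to 2.97) lower in the cold. The fatty acid-binding protein homolog 5-like contig (LOC105201939), an intracellular carrier, had 4 reads at 30 °C and 19 at 40 °C. Its 4.19-fold (1.39 to 16.9) difference rests on these few reads.

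**Figure D1:**
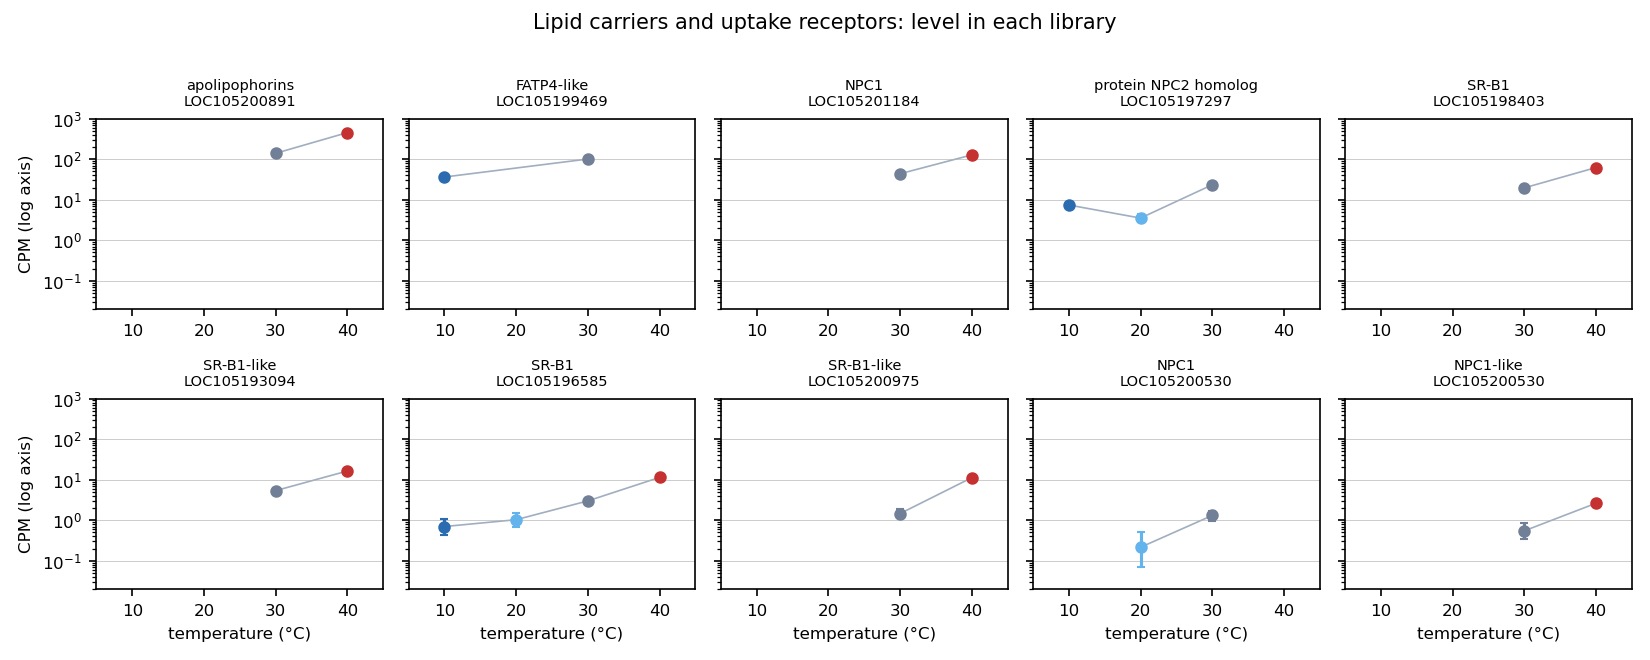
Level of the 10 lipid carrier and uptake receptor contigs with at least 50 reads in 1 library, 1 panel each, as CPM on a log axis (vertical) against temperature in °C (horizontal). Points are single libraries with exact Poisson 95% intervals for counting error, and a missing point means not listed at that temperature. CPM is not per length, so heights are compared within a panel. The 7 contigs with a value at 40 °C all lie higher there than at 30 °C, and points at 10 and 20 °C lie below 30 °C, as in LOC105196585 with 0.699, 1.03, 3.0 and 11.4 CPM.

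Lipases went both ways. At 10 °C 4 of 5 member lipase contigs exceeded the control, where 56.5% of all listed contigs did, and at 20 °C 5 of 6, where 52.4% did. At 40 °C 2 of 5 did so, beside 46.7%. Among listed ant contigs with a protein name the shares were 56.7% at 10 °C, 54.6% at 20 °C and 59.0% at 40 °C. By gene the cold counts are 3 of 4 at both temperatures, and among lipases with at least 50 reads 2 of 3 were higher at 10 °C. Those higher in the cold were contigs of hormone-sensitive lipase, diacylglycerol lipase beta and lipase 3-like genes. The 3 pancreatic-type contigs were lower wherever they were listed. Ant contigs with the Lipase domain, phospholipases included, went both ways, with 3 higher and 2 lower at 10 °C. At 20 °C 2 were higher and 1 lower, and at 40 °C 1 and 1. Among the higher ones was an uncharacterized protein outside the members (LOC105207204). It was 57.4-fold (15.4 to 481.0) higher at 10 °C, on 90 reads against 2, and 16.5-fold (4.01 to 145.6) higher at 20 °C, on 20 against 2.

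Hormone-sensitive lipase (LOC105198580) hydrolyses diacylglycerol and other neutral lipids of the lipid droplet. Its main contig had 309 reads at 10 °C, 342 at 20 °C and 59 at 30 °C, or 10.3, 14.7 and 1.54 CPM. Both cold libraries stood well above the control, by 6.68-fold (5.04 to 8.98) at 10 °C and 9.56-fold (7.24 to 12.8) at 20 °C. A second contig of the same gene had 24, 13 and 3 reads at those temperatures and was higher in the same libraries, by 10.2-fold (3.10 to 52.9) and 7.15-fold (1.96 to 39.1). Which of the cold temperatures held more of the main contig depends on the scaling, since 20 °C was 1.43-fold (1.22 to 1.68) above 10 °C on the authors' scaling and 1.07-fold below it on the FPKM scale. It was not listed at 40 °C.

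Both contigs of the sn1-specific diacylglycerol lipase beta-like gene (LOC105193191) were listed at 20 °C and higher there. In mammals this enzyme makes a signalling monoacylglycerol from diacylglycerol. The larger contig had 1258 reads at 30 °C and 2050 at 20 °C, or 32.9 and 88.3 CPM, which is 2.69-fold (2.50 to 2.89). The smaller had 100 and 151 reads and was 2.49-fold (1.92 to 3.24) higher. On the FPKM scale these folds are 1.73 and 1.60, and at 42.47 FPKM the larger contig had the highest level per length of the 13 members listed at 20 °C.

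Lipase 3-like genes are named after a fruit fly lipase that responds to starvation. The 6 contigs of this name went both ways. LOC105195198 had 19 reads at 30 °C and 82 at 10 °C and was 5.50-fold (3.31 to 9.60) higher in the cold. LOC105203838 had 53 reads at 30 °C and 4 at 20 °C, 8.03-fold (2.96 to 30.6) lower. LOC105193074 had 36 reads at 20 °C, 12 at 30 °C and 54 at 40 °C, or 1.55, 0.313 and 1.24 CPM. It was not listed at 10 °C, and among the libraries with a value the control was the low one. The outer ones did not differ beyond counting error, at 1.25-fold (0.794 to 1.94) with 20 °C the higher. On the FPKM scale 40 °C is the higher, by 1.79-fold.

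At 40 °C the lipase 3-like gene LOC105198588 was lower, with 627 reads at 30 °C and 283 at 40 °C, or 16.4 and 6.52 CPM. That is 2.51-fold (2.18 to 2.90) lower, and 1.75-fold lower on the FPKM scale. A contig assigned to LOC105193237 by the KEGG entry and to LOC105208107 by the nucleotide match had 8 and 51 reads and was 5.62-fold (2.65 to 13.7) higher at 40 °C. Of the 6 lipase 3-like contigs, 3 match the same protein entry in the domain annotation, so reads may be split between related genes and single members are uncertain.

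Pancreatic-type lipases belong to a family of secreted enzymes that includes the main fat-digesting enzyme of the mammalian gut. A contig named pancreatic lipase-related protein 2-like (LOC105195913) had 1756 reads at 30 °C and 496 at 10 °C, or 45.9 and 16.5 CPM, and was 2.78-fold (2.51 to 3.07) lower. The pancreatic triacylglycerol lipase-like contig (LOC105199575) had 615 reads at 30 °C and 159 at 40 °C, or 16.1 and 3.66 CPM, and was 4.38-fold (3.68 to 5.25) lower. A further contig (LOC105195357) had 11 and 2 reads at 30 and 40 °C. In the same 40 °C library the list of digestive gut markers had 3 contigs higher and 7 lower of 10 listed, with a summed level of 153.7 CPM against 300.0 at 30 °C, and its part in the lower lipases was not tested. At 10 °C that list had 2 higher and 3 lower, at 14.6 CPM against 33.3, and at 20 °C 2 higher and 0 lower, at 1.94 against 0.444.

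**Figure D2:**
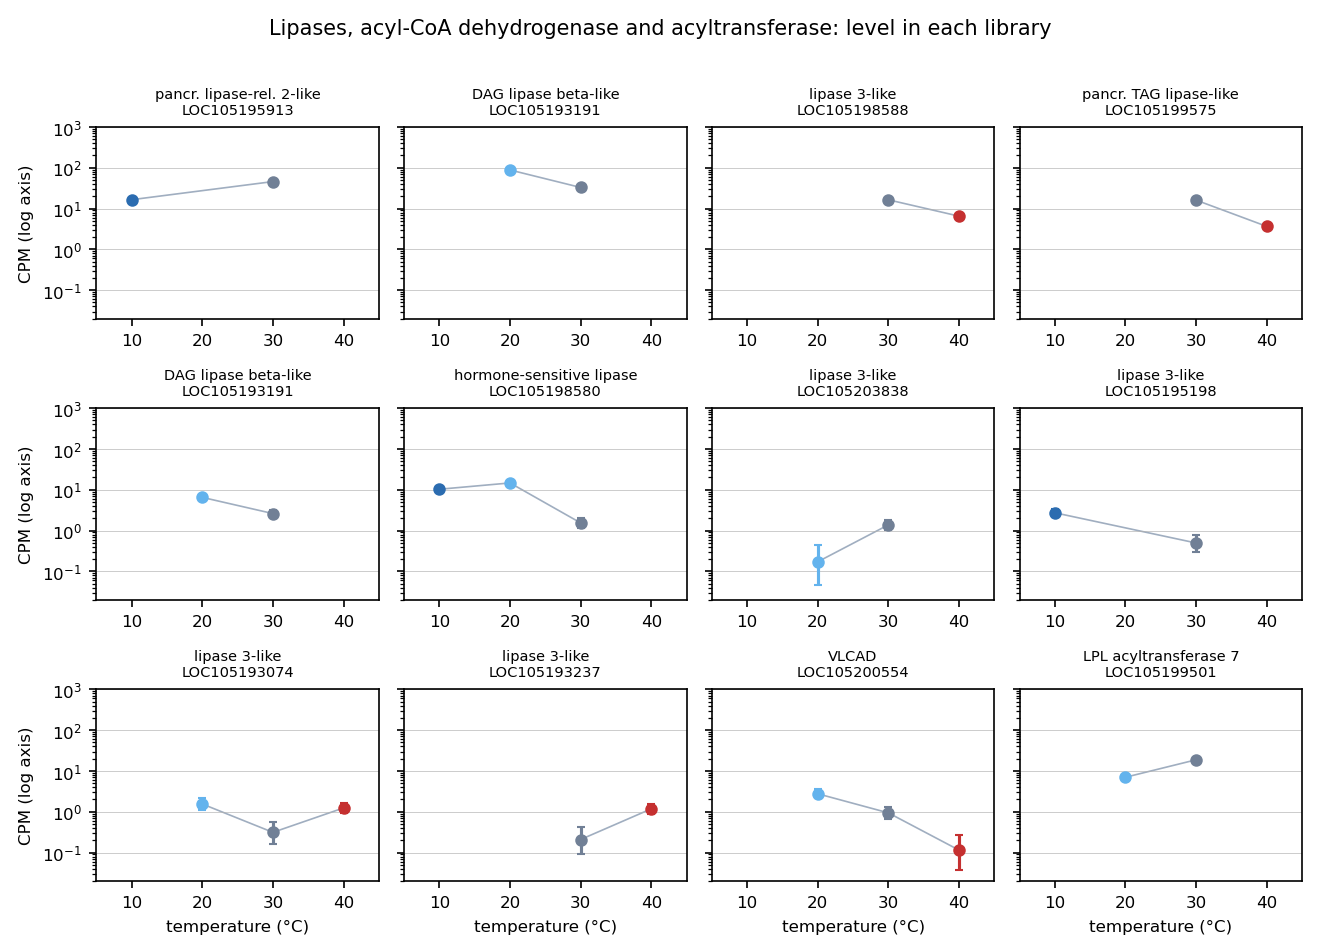
Level of the 10 lipase contigs, the acyl-CoA dehydrogenase (VLCAD) and lysophospholipid (LPL) acyltransferase 7, 1 panel each, as CPM on a log axis (vertical) against temperature in °C (horizontal). Points are single libraries with exact Poisson 95% intervals. Hormone-sensitive lipase is at 10.3, 14.7 and 1.54 CPM at 10, 20 and 30 °C, while both pancreatic-type lipases lie below their 30 °C level.

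The 2 members that are enzymes of fatty acid oxidation had low levels. Peroxisomal oxidases fell outside the rule only by the spelling acyl-coenzyme A, and are given below. Of these, acyl-coenzyme A oxidase 1 (LOC105200386) stood higher, at 6.35 CPM at 30 °C and 23.9 CPM at 40 °C. Carnitine O-palmitoyltransferase 1 (LOC105204388), the gate for long-chain fatty acids into mitochondria, had 22 reads at 10 °C and 41 at 40 °C, against 5 in the control. Among the libraries with a value the control was the low one, by 5.61-fold (2.07 to 19.0) against 10 °C and 7.23-fold (2.86 to 23.5) against 40 °C. This contig was not listed at 20 °C. Very long-chain specific acyl-CoA dehydrogenase (LOC105200554), which starts mitochondrial beta-oxidation of the longest chains, had 64 reads at 20 °C, 36 at 30 °C and 5 at 40 °C, or 2.76, 0.940 and 0.115 CPM. It was 2.93-fold (1.92 to 4.54) higher at 20 °C and 8.16-fold (3.19 to 26.6) lower at 40 °C than in the control.

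Acyltransferases attach fatty acids to glycerolipids or sterols. Lysophospholipid acyltransferase 7 (LOC105199501), which in mammals re-acylates phosphatidylinositol, had 720 reads at 30 °C and 163 at 20 °C, or 18.8 and 7.02 CPM, and was 2.68-fold (2.26 to 3.19) lower. The 2 other acyltransferases listed at 20 °C were lower too. Lysocardiolipin acyltransferase 1-like (LOC105199052), whose mammalian counterpart remodels the mitochondrial lipid cardiolipin, had 29 reads at 30 °C and 1 at 20 °C. A sterol O-acyltransferase 1-like contig (LOC105200458) had 24 and 2. Sterol O-acyltransferase 2-like (LOC105197460), of the family that esterifies sterol for storage, had 11 reads at 10 °C, 2 at 30 °C and 19 at 40 °C.

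In all, 22 of the 30 members had at least 50 reads in some library. The other 8 reached between 11 and 41 reads and differed from 30 °C by 4.19-fold to 17.6-fold. Among them, the lipase 3-like LOC105202945 had 41 reads at 10 °C against 12 at 30 °C.

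Over all members, 12 of 16 listed at 40 °C were higher than at 30 °C. That was 46.7% among all contigs listed there and 59.0% among those with an ant match and a protein name. No member fold against 30 °C was below 2.49 at any temperature, so the 2-fold counts of members mainly give direction. Only the 1 CPM added to both levels can keep a member that reaches the mean out of them. A mean of 1 CPM or more was reached by 9 members, of which 7 were higher by 2-fold or more and 2 lower by as much. The shares over all such contigs were 40.1% and 43.4%, and over named ant contigs 56.2% and 31.7%. The 7 were all carriers and the 2 were lipases. The median log2 ratio of the 9 was 1.53, beside 1.11 for named ant contigs and -0.82 for all.

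At 10 °C 6 of 10 members were higher, where 56.5% of all listed contigs and 56.7% of named ant contigs were. Of the 6 that reached the same mean, 2 passed 2-fold upwards and 4 downwards, where the shares were 36.2% and 47.0% over all contigs and 40.6% and 45.6% over named ant contigs. Their median log2 ratio was -1.33, beside -0.93 and -0.85. With every listed member it turns to 0.50, beside 0.47 and 0.51, and of members with at least 50 reads 2 of 6 were higher. The share of higher members lies near the background. The 2 higher ones were lipases, and the 4 lower ones were the 3 carriers and a pancreatic-type lipase.

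At 20 °C 6 of 13 members were higher, where 52.4% of all listed contigs and 54.6% of named ant contigs were. Of the 7 that reached the mean, 3 passed 2-fold upwards and 2 downwards, where the shares were 31.4% and 48.3% over all contigs and 36.1% and 44.9% over named ant contigs. The 3 higher ones were contigs of hormone-sensitive lipase and diacylglycerol lipase beta. The median log2 ratio of the 7 was 0.95, beside -0.97 and -0.82, and it turns to -0.58 when every listed member enters, beside 0.40 and 0.45. It was -0.01 with 1 contig per gene and -1.30 for members averaging 10 CPM or more, and on the FPKM scale 1 member in place of 3 was higher by 2-fold.

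**Figure D3:**
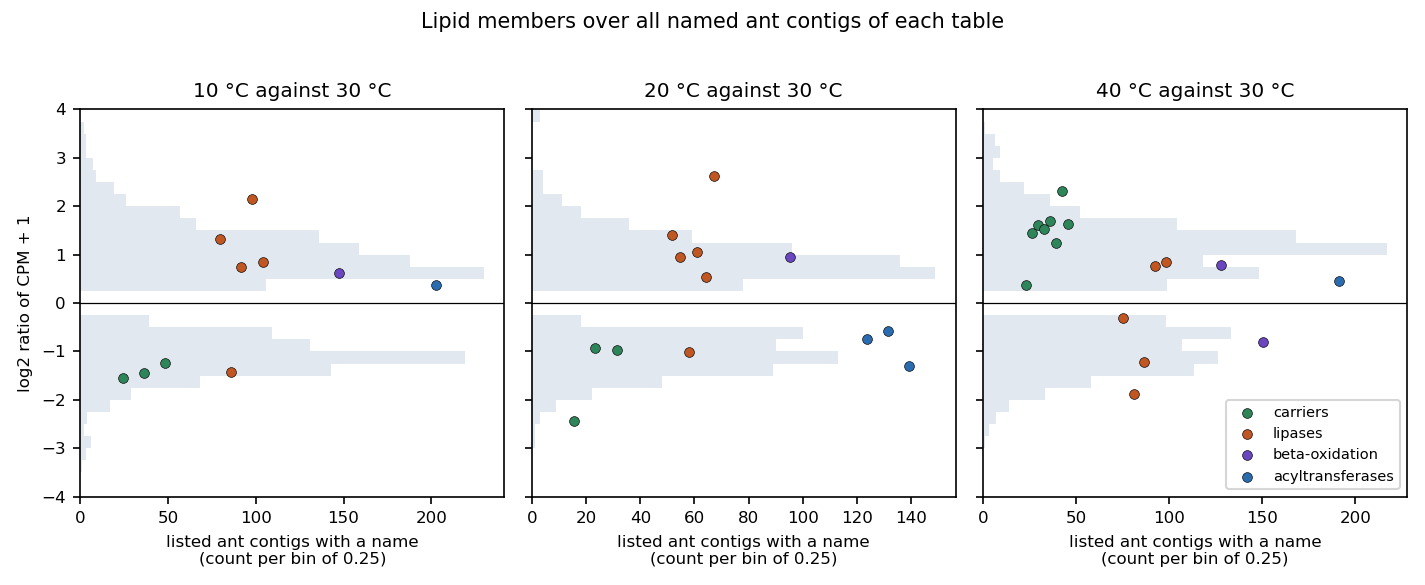
Log2 ratio of CPM + 1 against 30 °C (vertical) for each lipid member, 1 panel per temperature, as points coloured and set apart by role. Grey bars count the listed ant contigs with a protein name per 0.25 of log2 ratio (horizontal axis), and the horizontal place of a point has no meaning. All 8 carriers at 40 °C lie above 0, and the 3 at 10 °C and 3 at 20 °C lie below it.

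The choice of scale changes sizes but no direction against 30 °C in these members. The FPKM scale makes the 40 °C folds of the higher carriers larger, from 3.24 to 4.64 for apolipophorins and from 7.64 to 10.9 for LOC105200975. It makes the 20 °C fold of hormone-sensitive lipase smaller, 6.14 in place of 9.56, and that of the NPC2 homolog larger, 10.3 in place of 6.63.

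**Figure D4:**
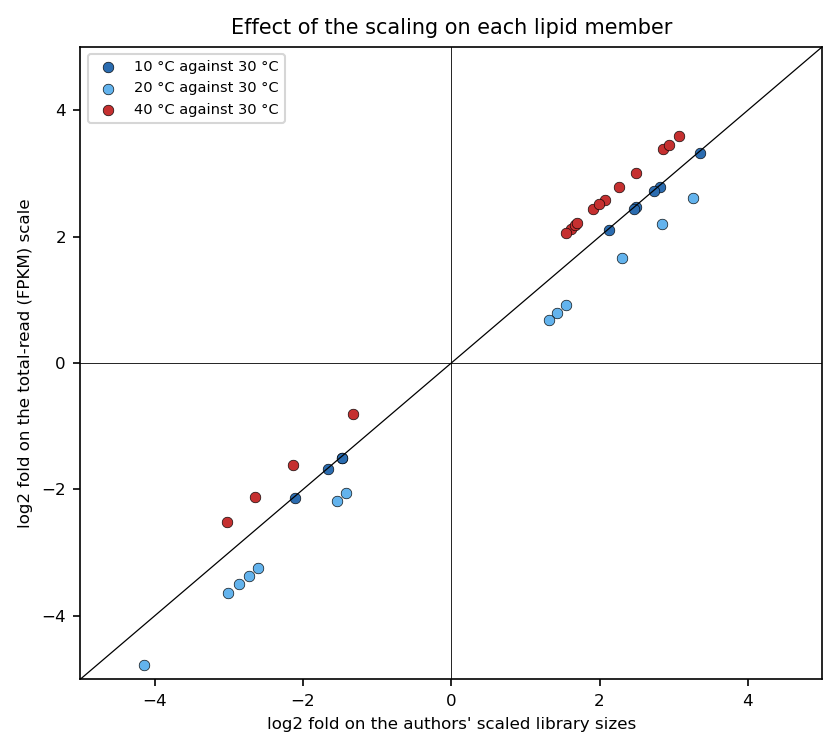
Log2 fold against 30 °C of each member on the authors' scaled library sizes (horizontal) and on the total-read scale of the FPKM columns (vertical), coloured by temperature. The line marks equal values. Points at 10 °C lie on the line, those at 20 °C lie below it and those at 40 °C above it. No point changes side of 0, and none could, since the shifts are smaller than every member difference.

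Other genes of the pathway were counted from 5 lists that hold no member, over listed ant contigs. At 40 °C the 4 contigs of the list of storage enzymes were higher. Of these, 2 are diacylglycerol kinases, which use up diacylglycerol in signalling. The contig of diacylglycerol kinase 1 (LOC105199906) had 2 reads at 30 °C and 13 at 40 °C, and was also higher at 10 °C, with 37 reads, and at 20 °C, with 9. The other 2 are phosphatidate phosphatases, among them a phosphatidate phosphatase of the lipin family (LOC105204002), which makes the diacylglycerol from which triacylglycerol is built, with 412 reads at 30 °C and 1649 at 40 °C, or 3.53-fold (3.17 to 3.94). The 1 listed contig of hormone and lipoprotein uptake, a low-density lipoprotein receptor-like gene (LOC105199833), was 8.70-fold (5.97 to 13.1) higher, on 296 reads against 30. Peroxisome and sterol carrier genes had 1 higher and 3 lower. The higher one was peroxisomal acyl-coenzyme A oxidase 1 (LOC105200386), which starts peroxisomal beta-oxidation, at 3.76-fold (3.27 to 4.34), on 1036 reads against 243. A second oxidase of that step, acyl-coenzyme A oxidase 3-like (LOC105201679), was 6.58-fold (2.52 to 21.8) lower, on 5 reads against 29. Peroxisomal multifunctional enzyme type 2 (LOC105192979), which acts later in the same pathway, was 2.58-fold (1.92 to 3.50) lower, and the peroxisomal membrane protein PMP34 (LOC105202854) had 5424 reads at 30 °C and 2574 at 40 °C. The rest of beta-oxidation had 1 lower contig, and 0 contigs matched the names of the fatty acid activation list. Those names do not cover the fatty acid transport protein given above.

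At 10 °C those lists held 5 higher and 3 lower contigs, and at 20 °C 2 higher and 1 lower. An enoyl-CoA hydratase domain-containing protein (LOC105195995) was 5.61-fold (4.13 to 7.75) lower at 10 °C, on 48 reads against 343. Peroxisome biogenesis factor 2 (LOC105195963), which is needed to import peroxisomal enzymes, was 2.42-fold (2.17 to 2.70) higher, on 962 reads against 506. Peroxisomal hydratase-dehydrogenase-epimerase-like (LOC105197412) was 10.7-fold (4.24 to 34.7) higher at 10 °C, on 42 reads against 5. Another contig of peroxisomal multifunctional enzyme type 2 (LOC105192979) was 6.63-fold (2.51 to 22.1) higher there, on 26 against 5. The remaining higher contigs at 10 °C were of diacylglycerol kinase 1. Peroxisomal membrane protein 11B (LOC105196646), which acts in peroxisome division, was 2.88-fold (2.41 to 3.45) lower, on 161 reads against 591.

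Markers of several tissues were among the listed ant contigs. The fat body and oenocyte list, without apolipophorins, had 3 contigs higher and 3 lower at 40 °C, with a summed level of 46.3 CPM against 26.4. At 10 °C it had 1 higher and 2 lower, at 14.1 CPM against 50.4, and at 20 °C 2 higher and 2 lower, at 12.5 against 34.4. The summed levels therefore went the same way as the carriers, and their part in the carrier differences was not tested. Venom gland markers had 7 of 7 contigs higher at 10 °C, 4 of 5 at 20 °C, and 7 of 8 in the heat. Muscle markers were higher in 4 of 5 at 10 °C and in 2 of 3 at 20 °C, and 0 were listed at 40 °C. Germline markers had 2 higher and 2 lower at 10 °C and 2 higher at 40 °C, and eye markers had 1 higher and 2 lower at 10 °C, 1 and 1 at 20 °C and 4 lower at 40 °C.

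Of the 27 member genes, 25 were found in the annotation of assembly UNIL_Sinv_3.0. No pair of them is adjacent there, the closest being 6 genes apart. In that annotation 7 of the 25 overlap another gene, namely LOC105193191, LOC105196585, LOC105198403, LOC105199469, LOC105199575, LOC105201184 and LOC105204388. Whether reads were counted by strand is not given in the sources used here, so reads of these genes and of their neighbours cannot be told apart with certainty.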

How the data were processed

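RNA was sequenced from 4 libraries of whole medium workers, 1 per temperature, grouped by the treatment label. Reads came from oligo-dT primed cDNA, per the labels' protocols. The submitters' processing notes name RSEM, Bowtie 1.1.2, Trimmomatic 0.38 and FastQC 0.11.7. The assembler, the genome build and the strand setting are not given in the sources used here. The estimated counts deposited by the authors are whole in every listed contig. The authors' deposited log2 values are log2(CPM + 1), and a scaled library size per library was recovered from them. The FPKM values deposited by the authors scale by total reads. The signed folds, p-values and group means in the deposited tables were not used, since no replicate enters them. The table for heat held 1 empty line, which carries no contig.

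From the counts, CPM ratios, exact Clopper-Pearson intervals and log2 ratios with a pseudocount of 1 CPM were computed, and counts of 2-fold differences used contigs averaging 1 CPM or more. A single read equals 0.0230 CPM in the library with the largest scaled size and 0.0431 CPM in the smallest. The protocol names no molecular identifiers, so intervals cover counting error only. The plan named members with at least 50 reads in 1 library. The others are given by range and also singly, with their reads, after their values were seen. Members, lists and rules were chosen with earlier results of these data known. Genes outside the members come from the lists, from names in KEGG entries, or from a protein domain shared with members. The KEGG and domain searches were not in the plan. The ratio and interval code was tested on simulated Poisson counts. The alternatives were pseudocounts of 0.1 and 5 CPM, no filter, a filter of 10 CPM, the FPKM scale, a 4-fold limit, 1 contig per gene and a stricter ant match. Those for members of any fold were added after the data were seen. Computations used SciPy 1.17.1, numpy 2.4.6 and pandas 2.3.3 under Python 3.11.15, and plots matplotlib 3.10.9.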

Additional observations from a re-analysis of the deposited data

Results flagged for a closer look

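Members were looked at again when they lay on opposite sides of the control in the cold and at 40 °C, and 2 of them did. Scavenger receptor class B member 1 (LOC105196585) had a log2 ratio of -1.24 at 10 °C, -0.98 at 20 °C and 1.63 at 40 °C. Very long-chain specific acyl-CoA dehydrogenase (LOC105200554) had 0.95 at 20 °C and -0.80 at 40 °C. All these ratios use the same 30 °C library. Set against each other without it, the receptor was 11.0-fold (7.30 to 17.3) higher at 40 than at 20 °C and the dehydrogenase 23.9-fold (9.74 to 76.2) lower, on 5 reads against 64. With 1 library per temperature the differences between these effects were not tested.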

How the results depend on the processing

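Of 175 recomputed log2 ratios of named members, 138 stayed within counting error, 37 moved beyond it and 0 changed sign. No setting could have changed a sign. The filters, 1 contig per gene and the stricter ant match only select members, so their ratios are unchanged and count among the 138. A pseudocount cannot turn a ratio. On the FPKM scale 15 ratios stayed and 13 moved, and its shifts are smaller than every member difference. Several counts and medians over members moved, and the cause was not tested. With a pseudocount of 5 CPM, members at least 2-fold higher at 10 °C numbered 1, those lower at 20 °C 1 and those lower at 40 °C 1, and the medians were -0.84, 0.39 and 1.05 at 10, 20 and 40 °C. With no filter the medians were 0.50, -0.58 and 0.81, so that at 10 and 20 °C the sign turned. Among members averaging 10 CPM or more, 0 were higher at 10 °C, 1 was higher at 20 °C with a median of -1.30, and 4 were higher and 1 lower at 40 °C. On the FPKM scale 1 was higher at 20 °C with a median of 0.51, and 1 was lower at 40 °C with a median of 1.99. With a 4-fold limit 1 was higher and 0 lower at 10 °C, 1 higher and 1 lower at 20 °C, and 1 higher and 0 lower at 40 °C. With 1 contig per gene the median at 20 °C was -0.01. Of members with at least 50 reads, 2 were higher at 10 °C. No replicate could be left out and no paired analysis was possible because each temperature has 1 library. Depth limits the 8 members with fewer than 50 reads.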

Other observations

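The rule for members reads the protein description, and 8 further ant contigs carry a matching name only in their KEGG entry, with a protein described as hypothetical. They were looked for after the data were seen. Storage proteins of the fat body are among them. A vitellogenin-3 contig (LOC105205783), of the yolk protein family, had 5 reads at 20 °C, 57 at 30 °C and 275 at 40 °C. It was 6.91-fold (2.79 to 22.1) lower at 20 °C and 4.26-fold (3.19 to 5.77) higher at 40 °C. A contig of a hexamerin-like gene (LOC105204474), a family of amino acid storage proteins of insect blood, had 3, 29 and 111 reads at these temperatures. A second hexamerin-like gene (LOC105192919) had 11 reads at 30 °C and 71 at 40 °C.

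The remaining contigs of this kind were a pancreatic triacylglycerol lipase-like gene (LOC105199576), with 27 reads at 10 °C, 24 at 20 °C and 162 at 30 °C, a dihydroxyacetone phosphate acyltransferase (LOC105199621) with 55 at 10 °C, 25 at 30 °C and 95 at 40 °C, and a lipase 3-like gene (LOC105195098) with 22 at 30 °C and 65 at 10 °C, which is 3.77-fold (2.29 to 6.42) higher. A short-chain acyl-CoA dehydrogenase (LOC105194539) had 33 reads at 30 °C and 6 at 40 °C. A scavenger receptor contig, a further one of LOC105200975, had 11 reads at 30 °C and 2 at 40 °C, against 56 and 485 in the member contig of that gene.

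Ant contigs outside the members with the CD36 domain of the scavenger receptors were listed only at 40 °C. Croquemort-like (LOC105197453) and croquemort (LOC105207532), named for a fruit fly receptor by which blood cells take up dead cells, were 2.59-fold (2.37 to 2.84) and 2.41-fold (2.07 to 2.82) higher, on 1922 reads against 654 and 615 against 225. Among ant contigs with the lipocalin domain of fatty acid-binding proteins, apolipoprotein D-like (LOC105196365) was 14.1-fold (7.63 to 29.1) higher at 10 °C, on 122 reads against 11. Apolipoprotein D (LOC105193881) was 3.24-fold (1.66 to 6.70) higher at 10 °C and 7.37-fold (1.67 to 67.3) lower at 40 °C, on 33, 13 and 2 reads at 10, 30 and 40 °C.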
